A study of Bos taurus with 3 samples.

Results

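ASPN and ACTA2 high adipose stroma is the name used here for 609 of the 6088 cells of a bovine adipose-derived mesenchymal stromal cell culture. The cells were selected on the levels of 4 genes, ASPN, ACTA2, SERPINF1 and CCN2. Barcodes of at least 4438.5 unique molecular identifiers (UMIs, 1 per captured transcript) were taken as cells. Each cell was scored by the mean of log1p(UMIs per 10000) of the 4 genes, and the top 10% by this score were the members. The other 5479 adipose cells are the comparison throughout. The whole study held 18561 called cells.

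The cells came from 1 healthy Holstein-Friesian cow in its first lactation, which gave adipose tissue, bone marrow and peripheral blood for culture. The animal is labelled wild type and untreated. The medium of all 3 cultures was DMEM of low glucose content, supplemented with fetal bovine serum to 30%. Cells were collected at the stage of visible colonies. Each tissue gave 1 library (10x Genomics 3' chemistry), so there is no replicate and no test. Ratios below carry exact 95% intervals from the UMI counts, shares carry exact Clopper-Pearson intervals, and both cover counting error only.

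Mesenchymal stromal cells are plastic-adherent fibroblast-like cells. Cultured stroma can take on features of myofibroblasts, cells that pull on and lay down matrix. ACTA2 encodes smooth muscle alpha-actin, the actin of their stress fibres, and CCN2 encodes connective tissue growth factor, a secreted matrix protein known as a target of TGF-beta and of the YAP and TEAD transcription factors. ASPN encodes asporin, a small leucine-rich proteoglycan that binds collagen, and SERPINF1 encodes pigment epithelium-derived factor, a secreted serpin without protease-inhibiting activity.

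The members are the upper end of a range of scores, set by a limit and not by a gap, and are described as such. The highest score was 2.308 and 470 cells (7.72%) scored 0. The median score was 1.325 in the members and 0.452 in the other cells. The lowest member scored 1.10347 and the highest non-member 1.10309, and the next cells on each side scored 1.10365 and 1.10230. Within 0.05 of the limit lay 90 members and 106 non-members.

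**Figure D1:**
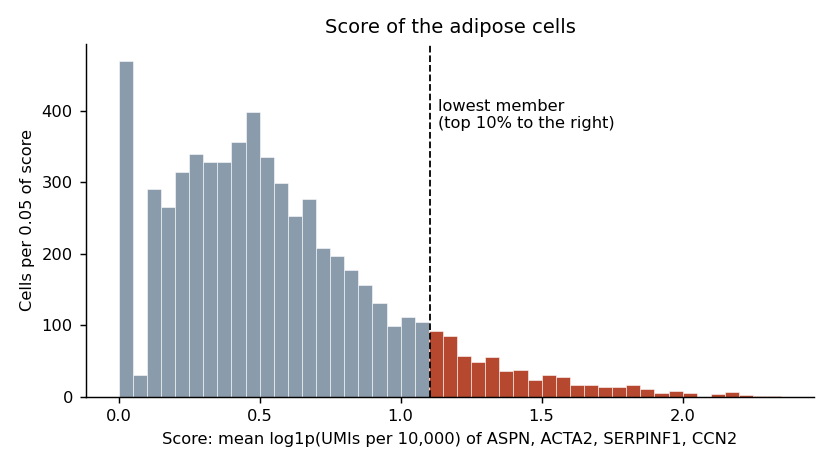
Histogram of the score (x axis, mean log1p of UMIs per 10000 over ASPN, ACTA2, SERPINF1 and CCN2) over the 6088 adipose cells (y axis, cells per 0.05 of score). The dashed line marks the lowest member, and the 609 members to its right form the upper tail of the range.

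The members were somewhat deeper than the other cells. Their median was 16193 UMIs per cell (quartiles 12572 to 21108), against 14213 (11244.5 to 18066.5). Median detected genes were 3773 and 3602, and 1388 and 1430 once each cell was thinned to 3000 UMIs. The mitochondrial share of UMIs had a median of 2.76% in the members and 2.95% in the others. Cells above 2 times the library median of UMIs made up 7.22% of the members (44 cells) and 4.54% of the others (249 cells). With members chosen within 10 bins of total UMIs, 175 genes were higher and 193 lower by the limits given below, against 177 and 198. With score and levels at 3000 UMIs the counts were 131 and 109. Doublets were not removed, and the part of depth and doublets in the differences below was not otherwise tested.

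The 4 rule genes chose the members, so their levels are a description. ACTA2 (ENSBTAG00000014614) stood at 572 CPM (UMIs summed over a group of cells and scaled to a common total) in the members and 61.4 CPM in the other cells. Its median per member was 3.50 UMIs per 10000 (quartiles 1.38 to 7.25), and the median of the other cells was 0. ASPN (ENSBTAG00000011847) stood at 197 and 25.8 CPM, with a median of 0.956 per 10000 in the members and a lower quartile of 0. SERPINF1 (ENSBTAG00000009705) stood at 95.6 and 18.5 CPM, also with a lower quartile of 0 in the members. CCN2 (ENSBTAG00000006367) stood at 1699.9 and 429 CPM, with medians of 15.9 and 2.75 per 10000. Single cells of the 2 groups overlapped in each gene. CCN2 made up 39.1% of the gap in mean score, ACTA2 31.9%, ASPN 17.5% and SERPINF1 11.6%.

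Not every member carried every rule gene. All 4 genes had a UMI in 246 members, 3 had one in 271 and 2 had one in 92. Among the other cells 102 (1.86%) had all 4. At 3000 UMIs per cell, the share of cells with an ASPN UMI was 35.5% in the members and 5.75% in the others. The shares were 61.7% and 12.9% for ACTA2, 24.3% and 4.93% for SERPINF1, and 96.7% and 55.6% for CCN2. Shares in cells of another type served as a reference for stray RNA: the 39 adipose cells in which endothelial markers made up at least 0.1% of UMIs (median 9294 UMIs), a set chosen after its values were seen. In these, thinned likewise, ASPN was found in 0 of 39, and the limit of 3 counts that a 0 allows is 7.69% of cells with a UMI at this depth, for counting error only. ACTA2 and SERPINF1 were each found in 1 of 39 (2.56%), and CCN2 in 35 of 39 (89.7%) at 1812 CPM, so these cells give no background for CCN2. Barcodes of 10 to 100 UMIs, the free RNA of the library, held 335 CPM of ACTA2, 921 of CCN2, 39.2 of ASPN and 27.7 of SERPINF1. Free RNA therefore held more of each rule gene than the other adipose cells did, and its part in their low shares was not tested.

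When a rule gene was left out and the top 10% were chosen on the other 3, the omitted gene was still higher in the chosen cells. ACTA2 stood at 365 CPM in cells chosen without it and 88.8 CPM in the rest, a ratio of 4.11 (3.95 to 4.27). The ratio was 3.75 (3.51 to 4.0) for ASPN, 3.29 (3.02 to 3.59) for SERPINF1 and 2.64 (2.59 to 2.69) for CCN2. These are smaller than the ratios of 9.33, 7.63, 5.16 and 3.97 in the cells chosen with all 4 genes. Over the 6088 cells at 3000 UMIs, Spearman's correlations between pairs of rule genes lay between 0.085 (ASPN and ACTA2) and 0.181 (ACTA2 and CCN2). These values are weak, the counts are sparse and the cells share 1 library.

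Outside the rule genes, the members differed from the other cells in 3 broad groups of genes. Contractile and matrix genes were higher, genes of the integrated stress response, described below, were higher, and cell cycle genes were lower. A gene was counted as apart when its CPM differed at least 1.5-fold and reached 50 CPM in the higher group. Of 3109 genes of 50 CPM, rule genes included, 177 were higher (5.69%) and 198 lower (6.37%). Without the rule genes, 173 of 3105 were higher. With TMM scaling in place of total UMIs the counts were 213 higher and 156 lower, since that scaling adds 0.0474 to every log2 ratio. The median log2 ratio over all genes but the rule genes was -0.09. Gene lists are read against this background, with the rule genes left out of every list. The minimum of 50 CPM lets in scarce genes through the group where they are higher, so a list's median is also given, where it differs by over 1.5 times, for genes of at least 10 CPM over all adipose cells whatever the group. That blind filter was chosen after seeing the data.

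**Figure D2:**
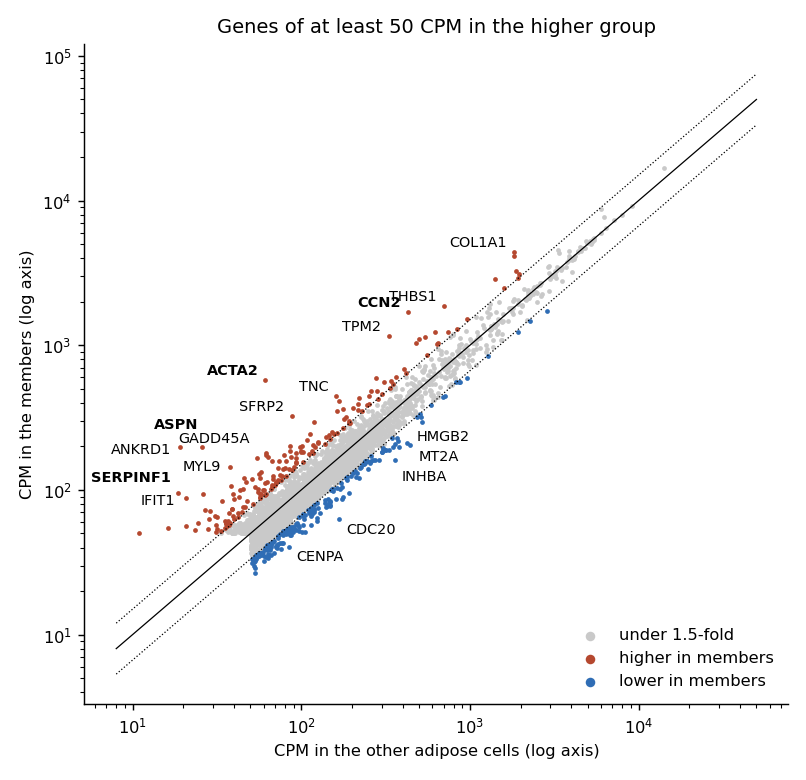
Level of each gene in the members (y axis, CPM, log axis) against the other adipose cells (x axis, CPM, log axis), for genes of at least 50 CPM in the higher group. Dotted lines mark 1.5-fold, red points the 177 higher genes, blue points the 198 lower genes, and bold names the rule genes. ANKRD1 lies farthest above the diagonal and CDC20 farthest below it.

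ANKRD1 (ENSBTAG00000011734), a nuclear ankyrin-repeat protein induced by mechanical load and a YAP target, had the largest ratio of all. It stood at 198 CPM in the members and 19.1 CPM in the other cells, a ratio of 10.4 (9.74 to 11.1). The ratio was 5.0 with scores and levels at 3000 UMIs and 6.24 with ACTA2 left out of the score. The median member nevertheless held 0 UMIs of it and the upper quartile was 0.571 per 10000. Most members thus had no UMI of it at their depth. Of the list of genes linked to YAP and TEAD, 5 of 10 measured genes were higher and 0 lower, with a median log2 ratio of 0.58, or 0.31 over 16 genes with the blind filter. GADD45A, a DNA damage and growth arrest protein, stood at 166 and 54.5 CPM (ratio 3.06). CRIM1, a membrane protein that binds BMPs, stood at 102 and 45.1 CPM (2.26). CCN1, the matrix protein most like CCN2, stood at 590.4 and 278 CPM (2.12). The kinase receptor AXL stood at 114 and 116 CPM.

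Contractile genes were higher in part, with 10 of 16 measured genes higher, 0 lower and a median log2 ratio of 0.81. That median was 0.65 with ACTA2 left out of the score. MYL9, the regulatory light chain of smooth muscle myosin, stood at 144 CPM in the members and 38.0 CPM in the others, a ratio of 3.80 (3.57 to 4.04). TAGLN, the actin-binding protein transgelin, stood at 93.7 and 26.2 CPM, a ratio of 3.58 (3.32 to 3.86). TPM2, a tropomyosin, stood at 1155 and 330.2 CPM, a ratio of 3.50 (3.42 to 3.57). In TPM2 the medians of single cells were 9.13 and 2.19 per 10000, and the lower quartile of the members (5.11) lay above the upper quartile of the others (4.60). The calponins split: CNN2 (107 and 38.2 CPM, 2.79) and CNN1 (159 and 67.4 CPM, 2.36) were higher, while CNN3 stood at 189.9 and 191 CPM. The crosslinker ACTN1 (1.96), caldesmon CALD1 (1.97) and the nonmuscle myosin heavy chain MYH10 (1.78) were also higher. Tropomyosin TPM4 had a ratio of 1.24.

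Of the list of 9 smooth muscle markers, 2 outside the rule were measured, CNN1 and TAGLN. Both were higher, with a median log2 ratio of 1.54. Other markers of mature smooth muscle were at low levels. ACTG2, enteric smooth muscle actin, stood at 36.7 and 7.69 CPM, and LMOD1, leiomodin, at 9.72 and 1.26 CPM, both below the minimum of 50 CPM. MYH11, the smooth muscle myosin heavy chain, had 1 UMI over the 609 members and DES, desmin, had 0. Summed over the 9 smooth muscle markers, ACTA2 included, the median member held 6.59 UMIs per 10000 (range 0 to 59.2) and the median other cell 1.2 (range 0 to 32.0). ACTA2, a rule gene, made up 572 of the 908 summed CPM in the members, so the rule set a part of this gap. Without ACTA2 the markers summed to 336 CPM in the members. With the adipose cells in 10 groups of equal size by score, that sum was 90.0 CPM in the lowest group. It was 206 CPM in the group next below the members. The contractile list also holds some of these markers.

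The label stroma was checked against 10 stromal markers, of which 8 reached 50 CPM in the members. Their sum had a median of 261 UMIs per 10000 in the members (range 123 to 704) and 183 in the others (23.8 to 482). Among surface proteins used to define mesenchymal stromal cells, ITGB1 stood at 802 and 657 CPM, CD44 at 278 and 237, ENG at 64.0 and 55.5, and NT5E at 60.2 and 50.2. THY1 was scarce in both groups, with 5.89 and 2.77 CPM. CD34 stood at 1.31 and 2.48 CPM, CD14 at 8.41 and 8.05 CPM, and the leukocyte gene PTPRC had 0 UMIs in the members.

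Markers of other cell types were near 0. The summed markers of pericytes, endothelium, macrophages, adipocytes and epithelium or mesothelium each had a median of 0 UMIs in both groups. In the members 4 of 7 pericyte markers (RGS5, KCNJ8, MCAM and HIGD1B) were at 0, and the list summed to 32.9 CPM against 40.2 CPM in the other cells. CLDN5 was the 1 endothelial marker of 10 at 0, and that list summed to 7.01 and 25.2 CPM, with a highest cell of 16.9 and 133 UMIs per 10000. Of the 11 macrophage markers 7 were at 0, C1QA and CSF1R among them, with sums of 10.0 and 9.39 CPM. ADIPOQ and LEP were the 2 adipocyte markers of 6 at 0, with sums of 2.52 and 7.24 CPM. Of the epithelial or mesothelial markers 4 of 7 were at 0 (KRT18, KRT8, EPCAM and WT1), with sums of 1.78 and 0.772 CPM.

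**Figure D3:**
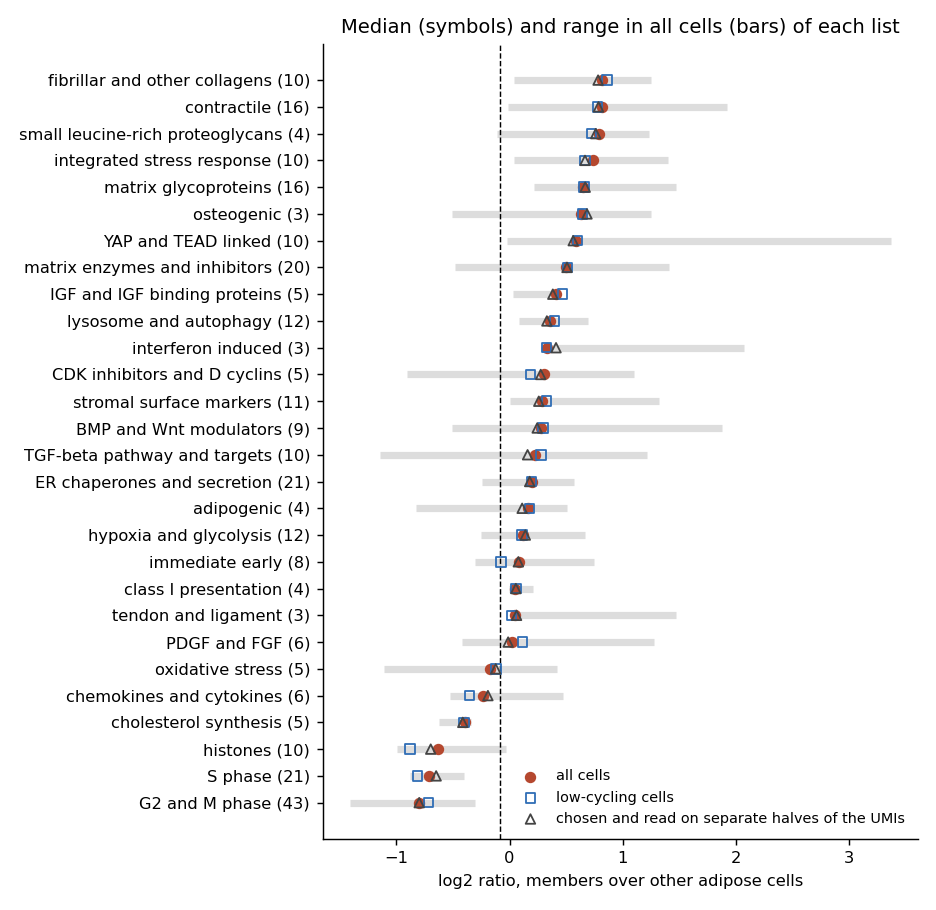
Median log2 ratio of members over other adipose cells for each gene list (x axis; rows are lists with the number of measured genes), in all cells (circles), in low-cycling cells (squares) and with members chosen and levels read on separate shares of the UMIs (triangles). Grey bars give the range over genes in all cells, and the dashed line is the median of all genes, -0.09. Collagen and contractile lists lie at the top and the 2 cell cycle lists at the bottom.

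Collagens, fibrillar and others, were also higher. Of 10 measured collagens 7 were higher and 0 lower, with a median log2 ratio of 0.82, or 0.53 over 14 genes with the blind filter. COL1A1 stood at 4382 CPM in the members and 1838 CPM in the others, a ratio of 2.38 (2.36 to 2.41), and COL1A2, its partner in type I collagen, at 4172 and 1836 CPM (2.27). The medians of single cells were 38.1 and 15.5 per 10000 for COL1A1. COL3A1 (2.17), COL5A2 (2.04), COL12A1 (1.91), COL6A3 (1.63) and COL5A1 (1.52) were also higher. COL6A1 (1.25) and COL14A1 (1.03) were under the 1.5-fold limit.

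Genes that crosslink or process collagen were partly higher, 9 of 20 measured, and 0 were lower. LOXL2, a lysyl oxidase, stood at 122 and 45.7 CPM (2.66), and PLOD2, the lysyl hydroxylase of collagen telopeptides, at 296 and 118 CPM (2.50). TIMP3, a matrix-bound metalloproteinase inhibitor, stood at 83.4 and 33.8 CPM (2.47). The related LOXL1 stood at 146 and 169.7 CPM, and the membrane metalloproteinase MMP14 at 122 in both groups. Of the chaperones and secretory factors of the endoplasmic reticulum 0 of 21 measured were apart, with a median log2 ratio of 0.20. HSPA5, the main luminal chaperone, had a ratio of 1.41.

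Of the matrix glycoproteins 9 of 16 measured were higher and 0 lower, with a median log2 ratio of 0.65. TNC, tenascin C, stood at 444 and 160.3 CPM (2.77). THBS1, thrombospondin, a protein that can release TGF-beta from its latent form, stood at 1854 and 705 CPM (2.63). FN1, fibronectin, stood at 414 and 167 CPM (2.48), and SPARC, a collagen-binding glycoprotein, at 2879 and 1400.0 CPM (2.06).

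Asporin belongs to the small leucine-rich proteoglycans, of which 2 of 4 other measured genes were higher. OGN, osteoglycin, stood at 245 and 112 CPM (2.18, interval 2.09 to 2.28), and LUM, lumican, at 202 and 85.9 CPM (2.35). DCN, decorin, stood at 496 and 361 CPM (1.38) and BGN, biglycan, at 142 and 152 CPM (0.928). OGN, OMD, ASPN and ECM2 lie next to each other in the RefSeq gene table of assembly ARS-UCD2.0, used here for gene order alone. The scarcer genes of this stretch were OMD, osteomodulin, with 20.1 and 7.23 CPM (2.78, interval 2.37 to 3.25), and ECM2, with 11.4 and 5.72 CPM (2.0, interval 1.62 to 2.44).

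The list of TGF-beta pathway genes and targets was mixed. Of 10 measured genes 3 were higher and 1 lower, with a median log2 ratio of 0.23, or 0.05 over 21 genes with the blind filter. TGFBI, a secreted adhesion protein, stood at 119 and 51.0 CPM (2.33). INHBA, the subunit of activin A, was lower, at 162 CPM in the members and 357 CPM in the others, a ratio of 0.453 (0.431 to 0.475). FST, follistatin, which binds and neutralises activin, was higher, at 483 and 259 CPM (1.86). The FST ratio rested on the choice of rule genes: it was 1.25 with ACTA2 left out of the score. The ligand TGFB1 stood at 46.0 and 45.3 CPM, the receptors TGFBR1 and TGFBR2 at 10.9 and 12.3 and at 11.8 and 10.6 CPM, and the feedback inhibitor SMAD7 at 28.2 and 29.6 CPM. The scarce ligand TGFB2 stood at 15.3 and 4.50 CPM.

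Among BMP and Wnt modulators 3 of 9 measured genes were higher and 0 lower. SFRP2, a secreted Wnt modulator of fibroblasts, stood at 323 and 88.0 CPM, a ratio of 3.68 (3.53 to 3.83). Its median member held 0.555 UMIs per 10000 and its upper quartile 4.22, so a part of the members held most of it. RSPO3, a secreted enhancer of Wnt signalling, stood at 106 and 53.0 CPM (1.99).

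Genes of the integrated stress response, the programme set off by amino acid shortage and unfolded protein, were higher as a group, 9 of 10 measured and 0 lower, with a median log2 ratio of 0.74. ATF4, its central transcription factor, stood at 602 and 366 CPM (1.65). ATF5 stood at 168 and 63.5 CPM (2.64), and DDIT3, the transcription factor CHOP, at 158 and 81.0 CPM (1.95). The serine synthesis enzymes PHGDH (1.58) and PSAT1 (1.63), asparagine synthetase ASNS (1.61), the mitochondrial folate enzyme ALDH1L2 (2.32) and the amino acid transporter subunits SLC7A5 (1.73) and SLC3A2 (1.68) were all higher. SHMT2 stood at 172 and 168 CPM. NUPR1, a stress-induced chromatin protein outside the list, stood at 174 and 61.5 CPM (2.84).

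IFIT1, an antiviral RNA-binding protein induced by interferon, had the largest ratio after ANKRD1 among genes with a symbol outside the rule and at least 50 CPM in the higher group. It stood at 87.9 CPM in the members and 20.9 CPM in the others, a ratio of 4.22 (3.89 to 4.57). Other interferon-induced genes lay closer together or were scarce. IFIT5 stood at 33.5 and 39.9 CPM, MX1 at 4.30 and 3.45, and IFIT3 at 1.5 and 2.42 CPM. IFIT1 was the 1 gene of 3 measured in the interferon list that was apart.

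Most measured genes of the S, G2 and M phase lists were lower. Of the G2 and M phase genes 39 of 43 measured were lower and 0 higher, with a median log2 ratio of -0.80. Of the S phase genes 12 of 21 were lower and 0 higher (median -0.72), and of the histones 8 of 10 (median -0.63). CDC20, the activator of the anaphase-promoting complex, stood at 62.5 CPM in the members and 167 CPM in the others, a ratio of 0.375 (0.347 to 0.406). CENPA, the centromeric histone, stood at 40.3 and 84.2 CPM, the chromatin protein HMGB2 at 211 and 426 CPM, TOP2A at 208 and 361 CPM and the helicase subunit MCM5 at 77.3 and 142 CPM. H3-3A, a histone variant made outside S phase, stood at 436 and 447 CPM. The related H3-3B, however, was lower, at 847 CPM in the members. With the cells in 10 groups by score, H3-3B stood at 1454 CPM in the lowest group. It stood at 1033 CPM in the group next below the members. Cyclin D2 (CCND2) was higher, at 158 and 73.8 CPM (2.15), and the CDK inhibitor CDKN1A had a ratio of 1.24.

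The summed S and G2/M lists made up a median of 0.648% of UMIs in the members and 1.14% in the others. At or below the library median of 1.11% were 480 members, or 78.8% (75.4 to 82.0), and 2564 other cells, or 46.8% (45.5 to 48.1). The comparison was therefore repeated within these 3044 low-cycling cells. There 167 of 3035 genes were higher (5.5%) and 173 lower (5.7%). Of the 177 higher genes 157 were again higher, 153 without the rule genes, and all 177 had a ratio above 1. Of the 198 lower genes 140 (70.7%) were again lower, and all 166 that reached 50 CPM there had a ratio below 1. The contractile median was 0.78, the collagen median 0.86 and the stress response median 0.67, against 0.81, 0.82 and 0.74 in all cells. Cell cycle lists stayed lower here, with medians of -0.81 for S phase, -0.72 for G2 and M and -0.88 for histones. In all cells these were -0.72, -0.80 and -0.63. The members and the other cells were thus still not alike in cell cycle genes within this subset. The ratio of ANKRD1 was 7.15 in these cells.

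Among the leading lower genes outside the cell cycle, MT2A, a metal-binding metallothionein, stood at 204 and 439 CPM (0.464), and the membrane-trafficking protein EHD4 at 77.8 and 149 CPM (0.522). FABP5, a fatty acid binding protein, stood at 48.9 and 86.9 CPM (0.563). The 39 endothelial-marker cells, 1 of which is a member, held 8361 CPM of FABP5. All cells outside that set held 44.2 CPM, members included, so the lower level of FABP5 in the members rests on those few cells. Cholesterol synthesis had 1 of 5 measured genes lower (HMGCS1, 74.5 and 115 CPM) and a median of -0.39. Chemokines and cytokines had 0 of 6 apart. CSF1, the macrophage growth factor, stood at 1083 and 1557 CPM and CXCL12 at 208 and 262 CPM. Differentiation lists had few measured genes: 0 of 11 chondrogenic genes reached 50 CPM, and of the adipogenic list 0 of 4 measured were higher and the 1 lower was FABP5, with the limit just given. Of the osteogenic list 2 of 3 measured were higher, COL1A1 and SPP1 (88.0 and 56.9 CPM), and of the tendon list 1 of 3, TNC. PPARG, the adipocyte transcription factor, stood at 7.57 and 2.66 CPM, below the minimum.

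Many of the differences were not confined to the members, but not all of them ran through the whole score range. The adipose cells were divided into 10 groups of equal size by score, the top group being the members. The collagen list summed to 3895 CPM in the lowest group, 7888 in the ninth and 11337 in the members. The contractile list summed to 4876, 7766 and 10319.7 CPM, and the stress response list to 1193, 1856 and 2384 CPM. The G2 and M list summed to 10405, 6420 and 4912 CPM. ANKRD1 stood at 2.99, 64.2 and 198 CPM in these groups. INHBA stood at 445, 236 and 162 CPM. Some differences arose only in the upper groups. IFIT1 stood at 14.2 CPM in the lowest group, 14.3 in the fifth and 87.9 in the members. The S phase list summed to 3325 CPM in the lowest group, 3242 in the sixth and 1989 in the members. SPP1 stood at 74.1 CPM in the lowest group, 59.7 in the ninth and 88.0 in the members. Of the 177 higher genes, 176 were higher in the ninth group than in the lowest, and 197 of the 198 lower genes were lower there. Over all 3109 genes 1271 (40.9%) were higher in the ninth group. Median UMIs per cell also went up along the score, from 13092 to 15265 and 16193, and its part in these gradients was not tested.

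**Figure D4:**
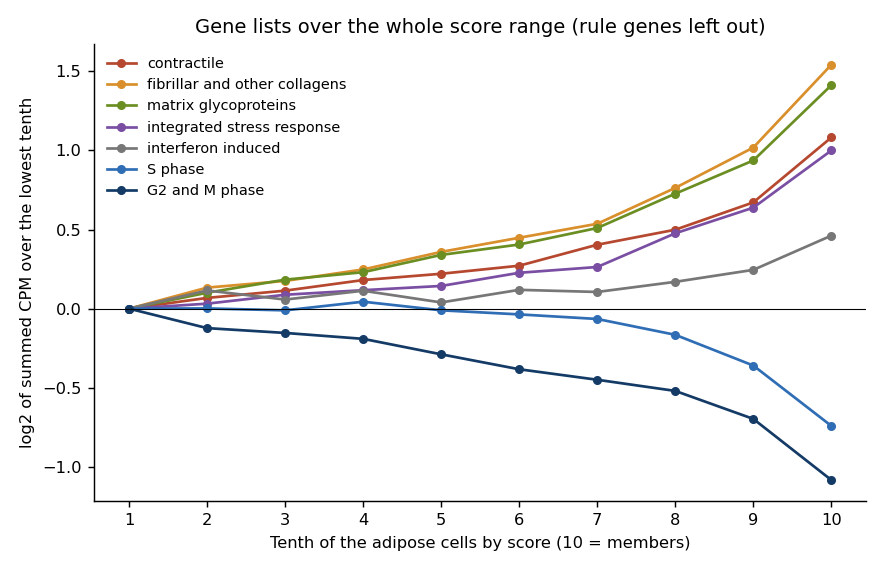
Summed CPM of each gene list, rule genes left out, relative to the lowest group (y axis, log2), over 10 groups of adipose cells ordered by score (x axis, group 10 being the members). Collagen, matrix glycoprotein, contractile and stress response lists go up along the score and G2 and M phase goes down, with the steepest step of each into the members.

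Over single cells at 3000 UMIs, genes whose level was most like the score included COL1A1 (Spearman's rho 0.34), COL1A2 (0.34), SPARC (0.32), CCN1 (0.31), THBS1 (0.30), TPM2 (0.28), TPM1 (0.26), TMSB4X (0.24) and CALD1 (0.23). The lowest were PTMA (-0.24), HSPA8 (-0.21), CENPF (-0.20), HMGB2 (-0.20) and TPX2 (-0.20). These values are over 6088 cells of 1 library and carry no p.

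The members were not alike in the genes that put them there. Taken alone, CCN2 placed 353 of the 609 members in its own top 10% of cells, ACTA2 336, ASPN 277 and SERPINF1 260. In the top 10% of all 4 genes were 29 members, of 3 genes 122, of 2 genes 293, of 1 gene 158 and of 0 genes 7. Within the members at 3000 UMIs, ASPN and ACTA2 had a Spearman's correlation of -0.207 in cells that had been chosen on the sum of both. The remaining pairs lay between -0.079 and 0.063.

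The members were split by whether ASPN and SERPINF1 or ACTA2 and CCN2 led their score, giving 299 and 310 cells with median UMIs of 16331 and 15885.5. These sides are set by the rule genes, and the values are a description. Of 2929 genes 12 were higher (0.41%) and 9 lower (0.307%) in the cells led by ASPN and SERPINF1, rule genes included. SFRP2 went with ASPN, at 437 and 213 CPM (2.05), as did NUPR1 at 219.5 and 131 CPM (1.68). The identifier ENSBTAG00000052665, which the files give without a symbol, stood at 82.2 and 20.1 CPM (4.10). ANKRD1 went with ACTA2 and CCN2, at 122 CPM in the cells led by ASPN and SERPINF1 and 273 CPM in the cells led by ACTA2 and CCN2 (0.446). So did FST (337 and 624 CPM), the intermediate filament NES (191 and 347 CPM), ACTG2 (19.4 and 53.6 CPM) and the basement membrane collagen COL4A1 (25.3 and 58.4 CPM). COL1A1 was near even, at a ratio of 1.21, and the collagen list had a median log2 ratio of 0.06 over 11 measured genes.

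Cells were also chosen on 1 rule gene at a time in a random share of the UMIs, with levels read in the remaining UMIs. ANKRD1 then had ratios of 6.95 with ACTA2 and 6.89 with CCN2, but 2.24 with ASPN and 2.24 with SERPINF1. SFRP2 had 3.74 with ASPN and 1.86 with ACTA2. OGN had 2.44 with ASPN and 1.47 with ACTA2, and MYL9 3.30 with ACTA2 and 2.07 with ASPN. COL1A1 lay between 1.67 and 2.03 with each of the 4 genes. FST had 1.91 with ACTA2 and 0.87 with ASPN.

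The choice of members depended partly on which UMIs were counted. Of the 609 members 420 were chosen again at 3000 UMIs per cell, and 490 on a random share of the UMIs. With members chosen on that share and levels read in the rest, 162 genes were higher and 180 lower, and these held 156 of the 177 and 165 of the 198 genes found with all UMIs.

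The same rule was applied to the bone marrow and blood cultures of this cow, which played no part in choosing the adipose members. Each library was compared within itself, after cells with at least 1% macrophage marker UMIs were left out (76 marrow cells and 1 blood cell). The top 10% were 920 of 9205 marrow cells and 319 of 3191 blood cells. The adipose limit was passed by 896 marrow cells (9.73%, 9.14 to 10.4) and 787 blood cells (24.7%, 23.2 to 26.2). Blood cells were deeper, with a median of 24615.5 UMIs outside the top 10% against 9032 in marrow, and the part of depth in these shares was not tested. Between 4 and 10 cell barcodes were shared by each pair of libraries.

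ACTA2 stood at 530 CPM in the top marrow cells and 88.0 in the rest, and at 1187 and 235 CPM in blood. ASPN stood at 29.8 and 7.79 CPM in marrow and 136 and 21 in blood. SERPINF1 stood at 113 and 19.0 CPM in marrow and 110.2 and 36.6 in blood, and CCN2 at 1796 and 632 in marrow and 2379.8 and 679 in blood. These differences are set by the rule.

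In marrow 69 of 2998 genes were higher in the top 10% (2.3%) and 85 lower (2.84%). In blood 138 of 3020 were higher (4.57%) and 180 lower (5.96%). Leaving out the rule genes, which are higher by construction, 44 genes higher in the adipose members were also higher in marrow and 79 in blood. With them the counts were 47, which is 26.6% of the adipose and 68.1% of the marrow genes, and 83, which is 46.9% of the adipose and 60.1% of the blood genes. Of the 177 adipose genes 145 reached 50 CPM in marrow and 168 in blood, so some could not be shared. Of the 198 lower genes 50 were shared with marrow (25.3% and 58.8%) and 105 with blood (53.0% and 58.3%), with 172 and 153 of them measured there.

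Higher in all 3 libraries were 34 genes, 3 of them rule genes (ACTA2, SERPINF1 and CCN2; ASPN did not reach 50 CPM in marrow). They included COL1A1, COL1A2, COL3A1, COL12A1, SPARC, FN1, TNC and THBS1 of the matrix. TPM2, MYL9, TAGLN, CALD1, CNN2 and MYH10 were among them from the contractile list, with GJA1, the gap junction protein connexin 43, and CCN1. TPM2 had ratios of 3.50 in adipose, 2.17 in marrow and 2.95 in blood, and THBS1 2.63, 3.15 and 3.09. Lower in all 3 were 44 genes, 30 of them in the G2 and M list, CDC20 among them with ratios of 0.375, 0.576 and 0.337.

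Other adipose differences were smaller or missing elsewhere. The stress response list had 9 of 10 genes higher in adipose, 2 of 11 in marrow and 2 of 12 in blood. INHBA had ratios of 0.453, 0.948 and 0.705. ANKRD1 stood at 177 and 58.9 CPM in blood (3.0) and at 0.763 and 0.194 CPM in marrow, where it was nearly undetected. SFRP2 stood at 519.8 and 193 CPM in blood (2.70) and at 0.0954 and 0.581 CPM in marrow. IFIT1 had 2.37 in marrow and 1.52 in blood. With 1 library per tissue, the differences between libraries were not tested.

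**Figure D5:**
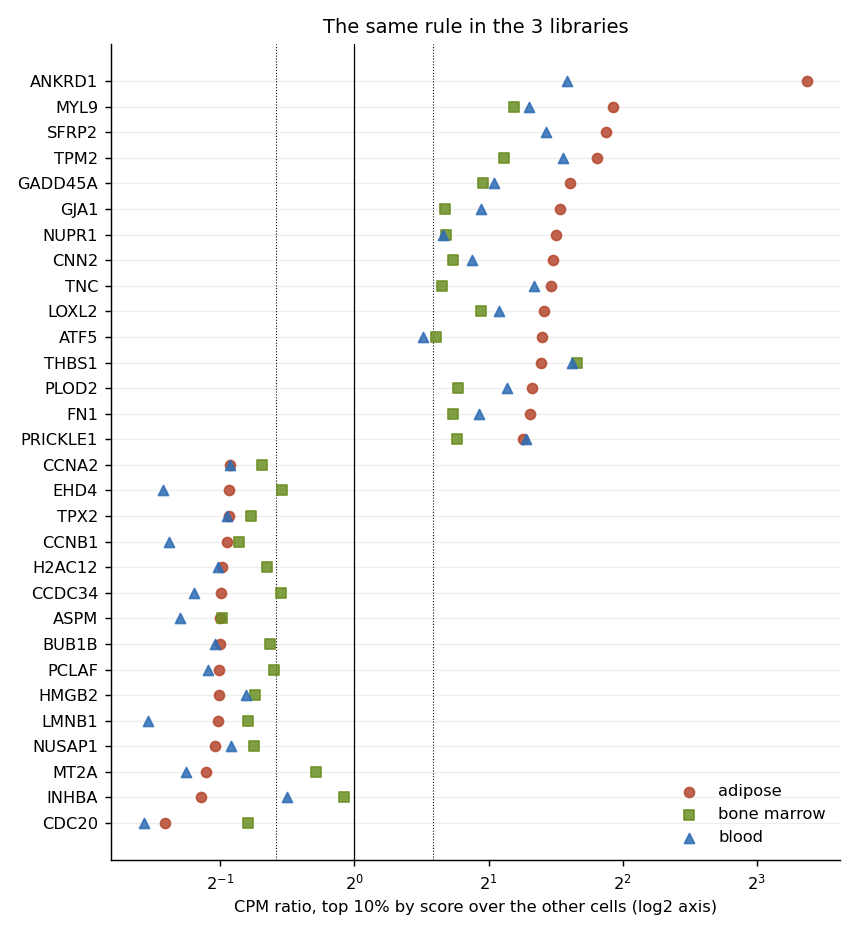
Ratio of CPM in the top 10% of cells by score over the other cells of the same library (x axis, log2 axis) for the 15 highest and 15 lowest leading genes of the adipose members (rows), in adipose (circles), bone marrow (squares) and blood (triangles). Dotted lines mark 1.5-fold, and a symbol is left out where a library held under 10 CPM in both groups (ANKRD1 and SFRP2 in marrow). The drawn ratios lie on the same side of 1 in every library, and INHBA in marrow lies nearest to 1 at 0.948.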

How the data were processed

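The authors deposited counts, as whole UMIs for each gene in each barcode. They used Cell Ranger, for which the processing notes of the submitters give version 6.1.1 and the file headers give 4. The build named in those notes is ARS-UCD1.2. The 3 matrices held 21861 genes, every barcode, and 99356868 (adipose), 106322567 (bone marrow) and 98016815 (blood) UMIs. Free RNA is barcodes of 10 to 100 UMIs. The limit for a cell, 4438.5 UMIs in adipose, is an order-of-magnitude rule: of the 3000 largest barcodes, the 99th percentile, over 10. Doublets were not called here.

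UMIs were summed over groups of cells and set as CPM. Per-cell shares and correlations used cells thinned to 3000 UMIs. Python 3.11.15, numpy 2.4.6, scipy 1.17.1 and edgeR 4.0.16 (TMM factors, an alternative only) were used. In counts simulated for this comparison over the 21861 genes, 200 of 200 genes at 3-fold, 0 of 200 at 1.2-fold and 0 of 2547 unchanged genes were counted as apart. These were summed counts with counting error alone, without variation between cells or a choice of cells on the rule genes. They check the arithmetic and give no error rate for the 177 and 198 genes.

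The members, the 38 gene lists (715 of 753 genes found) and the alternatives were chosen with earlier results of these data known. Named genes are the rule genes, the 15 highest and 15 lowest ratios of at least 100 CPM, list genes 1.5-fold apart, the 10 highest and 5 lowest correlations with the score, and 8 surface markers. Other names were chosen after their values were seen, other interferon genes and list genes under the limit among them. A planned search of promoters for motifs was not run, and no sequence is given. A few listed or named genes are not reported here.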

Additional observations from a re-analysis of the deposited data

Results flagged for a closer look

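Genes at least 1.5-fold apart in opposite directions in 2 libraries were marked, and the difference between libraries was not tested, since each tissue has 1 library. FST, the activin-binding follistatin, had a ratio of 1.862 in the top 10% of adipose cells and 0.5427 in the top 10% of blood cells (0.54 with blood cells of at least 0.1% macrophage UMIs left out). SPP1, osteopontin, had 1.546 in adipose and 0.2523 in blood (0.494 with those cells left out). CTSD, the lysosomal protease cathepsin D, had 1.623 in adipose and 0.6247 in bone marrow, where leaving out cells of at least 0.1% macrophage UMIs turned the ratio to 1.4.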

How the results depend on the processing

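For the counts, 3 list medians (contractile, collagens, G2 and M) and 34 named genes recomputed here, no direction was reversed. No paired analysis was possible because each group has 1 library. The counts of 177 higher and 198 lower genes became 409 and 477 at a minimum of 10 CPM, 2070 and 1408 with no minimum but 1 UMI in both groups, 58 and 11 at 2-fold, and 311 and 468 with a filter blind to group (10 CPM over all adipose cells, chosen after seeing the data). Lower genes numbered 367 for the top 5% of cells, 70 for the top 20%, 109 at 3000 UMIs, 112 with ASPN and 128 with CCN2 left out of the score. The contractile median log2 ratio (0.8145) was 0.8997 with no minimum, 0.8619 with TMM factors, 0.9177 and 0.6858 for the top 5% and 20%, 0.7065 at 3000 UMIs, 0.651 without ACTA2, 0.7565 without CCN2 and 0.7619 with the blind filter. The collagen median (0.8205) was 0.6007 at 10 CPM, 0.5283 with no minimum and with the blind filter, 0.9987 and 0.6561 for the top 5% and 20%, and 0.6722 without CCN2. The G2 and M median (-0.7977) was -1.011 and -0.6305 for the top 5% and 20%, -0.6365 at 3000 UMIs, -0.909 with members chosen within 10 bins of total UMIs, -0.6575 without ASPN, -0.9379 without ACTA2 and -0.5721 without CCN2. The filters change the counts by the number of genes admitted; the cause of the other moves was not tested. Over 34 named genes and 16 alternatives, 310 of 544 ratios moved by less than their counting interval, 234 moved by more and 0 reversed. Counts in the bone marrow and blood libraries stayed within 1.5 times under the 2 other macrophage limits.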

Other observations

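The 39 adipose cells with at least 0.1% of their UMIs from endothelial markers, a set chosen after its values were seen, held ANKRD1 at 546 CPM, SELE at 1248 CPM and CD34 at 174 CPM. CCN2 stood at 1812 CPM and ASPN at 0 CPM in them, and their median score was 0.768. Between ACTA2 and ANKRD1, the rule gene and the leading gene of the members, the RefSeq gene table of ARS-UCD2.0 places a run of 15 genes with both ends counted. The genes inside it did not share their ratios: FAS, a death receptor, had 2.01 (20.2 and 10.1 CPM), the lipase LIPA 1.02, IFIT5 0.840, RPP30 0.695 and the mitotic kinesin KIF20B 0.545.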
